A study of Mus musculus with 2 samples.

Results

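The transcripts described here are the abundant members of the nonsense-mediated decay class of the mouse gene annotation, measured in testis. A transcript was included when GENCODE M21 gives it the type nonsense_mediated_decay and its TPM, averaged over both deposited libraries, was at least 5. TPM, the usual unit of transcript abundance, is corrected for transcript length and has the same total in each library. The rule was met by 553 transcripts of 489 genes, out of 4687 transcripts of this class that were measured and 101510 transcripts that could be matched to the annotation. Of the other 4134 transcripts of the class, 2815 were above 0 and under the threshold, and 1319 were at 0 in both libraries. The members were thus chosen by their TPM in these same libraries, so TPM, the share of the gene in a transcript and every count that follows from them are given as a description, with no test.

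Nonsense-mediated decay is a surveillance pathway that degrades messenger RNAs whose reading frame ends early. In mammals the usual mark of such a message is a stop codon well upstream of the last exon-exon junction, where the junction complex left by splicing is still bound when the first ribosome stops. UPF1, helped by UPF2 and UPF3, recognises the stalled terminating ribosome, and the SMG proteins carry out phosphorylation and cleavage. Splicing factors of the SR and hnRNP families are known to control their own levels by splicing in exons that send their transcripts into this pathway. The annotation class is a prediction from the reading frame of a transcript model. A high level of a transcript in the class does not show whether it is degraded, and no library with the pathway blocked was analysed here.

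The tissue was testis of male C57BL/6J mice, an inbred laboratory strain, taken in adulthood at 8 weeks of age, with no treatment given in the labels. The series holds 1 group of 2 libraries, called replicate 1 and replicate 2, both made from polyadenylated RNA longer than 200 nucleotides and sequenced as stranded pairs of 76 nucleotides. The labels speak of littermates while a single donor identifier stands on both libraries, so a difference or SD between the libraries may be technical. The total of expected counts was 50374325 in replicate 1 and 52788929 in replicate 2. All 10 germ cell markers examined were at 1 TPM or more in both libraries, and their summed level was 6.73e+04 and 6.4e+04 TPM. Epididymis markers summed to 927 TPM in replicate 1 and 3.81 in replicate 2, with 1 of 12 at 1 TPM or more in both and Lcn10 at 0 in both. Peritubular markers summed to 296 and 140 TPM, and 3 skeletal muscle markers to 18.8 and 1.88 TPM. The sums for macrophages, endothelium and red blood cells were also higher in replicate 1. Sertoli and Leydig markers went the other way, at 1.45e+03 and 1.9e+03 TPM and at 4.49e+03 and 5.56e+03 TPM. The part of these cells in the differences between libraries below was not tested, and in whole tissue fewer cells of a type and less RNA per cell cannot be told apart.

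The annotated stop codon, together with the junctions downstream of it, defines the class, and the sequences around it are shown for members of different kinds. Each line below gives 30 bases of a member, 5′ to 3′, from the GENCODE M21 transcript sequences, with the annotated stop codon in capitals. Gapdhs-202 and Tesk1-204 are among the highest members, and their stop codon lies within exons that protein_coding transcripts also use. Hspa5-204 and Akap1-204 stop in sequence that no protein_coding transcript of the gene uses as an exon. Nupr1l-204, Odf4-203 and Srsf6-201 end at the same stop codon as a protein_coding transcript and have junctions downstream of it.
Gapdhs-202: gggctgccaaggctgTAGgcaaagtcatcc
Tesk1-204: gcggggagagctgtaTGAtgagaaggccga
Hspa5-204: accacctattcctggTAAgtgcgcctcatc
Akap1-204: gggtttttcgagtgcTGAccccagccagcg
Nupr1l-204: cgcacacgcctggccTGAgcacacgccacg
Odf4-203: ggtgccccccagctcTGAaaaagtcacctt
Srsf6-201: gcagccttttgccatTAGacgcagggtgat

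On the mm10 assembly these stop codons lie at chr7:30732221-30732223 on the minus strand for Gapdhs-202, chr4:43445365-43445367 on the plus strand for Tesk1-204 and chr2:34772448-34772450 on the plus strand for Hspa5-204. That of Akap1-204 lies at chr11:88843629-88843631 on the minus strand, and that of Nupr1l-204 at chr5:129908898-129908900 on the plus strand. Those of Odf4-203 and Srsf6-201 lie at chr11:68922824-68922826 on the minus strand and chr2:162932964-162932966 on the plus strand. In 6 of the 7 the annotated model also has an intron that no other annotated transcript of the gene has. The exception is Nupr1l-204.

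The 2 lines below give such a junction as it reads in the spliced transcript, with the bases downstream of the junction in capitals. They are shown because, among the annotated transcripts of the gene, a read across such a junction belongs to the member alone. Transcripts of other genes were not searched for the same junction. Tesk1-204 joins across chr4:43444720-43445283, and Ppia-201 across chr11:6415985-6418100, both on the plus strand.
Tesk1-204: gacctcacatccaagGGAAGGGACAAGGAA
Ppia-201: ctccttcgaggtcggCTGTTTGCAGACAAA

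Most members were of modest level and a few were among the abundant messages of the tissue. The median was 13.56 TPM in replicate 1 and 13.69 TPM in replicate 2, with the upper quartile at 28.31 and 29.13 TPM. A mean of at least 100 TPM was found for 30 members and one of at least 50 TPM for 65, while 209 lay between 5 and 10 TPM. The 10 highest members held 32.5% of the summed member TPM. The 553 members together made up 2.07% of all TPM in replicate 1 and 1.95% in replicate 2, out of 2.32% and 2.20% for the whole class. By expected counts, which are not divided by length, the members held 1.83% and 1.79% of each library.

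The highest member was Gapdhs-202, a transcript of the sperm-specific glyceraldehyde-3-phosphate dehydrogenase that serves glycolysis along the flagellum. Its level was 1709 TPM in replicate 1 and 1804 TPM in replicate 2, a mean of 1756 ± 66.9 (SD, n = 2). The protein_coding transcript Gapdhs-201 stood at 1920 and 1897 TPM in the same libraries, so the members of the pair lay close together in both. Gapdhs-202 is 675 bases long against 1368 for Gapdhs-201, and its model begins inside the coding sequence with an incomplete start. It held 44.7% and 47.1% of the gene's TPM and 24.6% and 26.3% of the gene's expected counts, in that order of libraries. The share of TPM, called IsoPct in the files, counts molecules, whereas the share of expected counts also grows with transcript length.

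Pebp1-204 came from the gene of phosphatidylethanolamine-binding protein, which is known as an inhibitor of RAF kinase signalling. It was measured at 1685 TPM in replicate 1 and 677 TPM in replicate 2, a 2.49-fold difference that makes it the second highest member and one of the less even. The protein_coding Pebp1-201 was at 2273 and 2133 TPM, and the gene as a whole at 4062 and 2837 TPM. The stop codon of Pebp1-204 lies in an exon that no protein_coding transcript uses, 84 bases upstream of the last junction.

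Tesk1-204, from the gene of a kinase that is abundant in testicular germ cells, was level between the libraries and exceeded its coding counterpart. It stood at 559 and 544 TPM, or 64.0% and 67.2% of the gene's TPM. The protein_coding Tesk1-201 stood at 307 and 258 TPM. Tesk1-204 omits coding-transcript exon sequence upstream of its stop codon and ends 311 bases before the last junction.

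Ppia-201 stood far above the highest protein_coding transcript of its gene. Ppia encodes cyclophilin A, a prolyl isomerase. Ppia-201 was at 436 and 518 TPM, with 82.1% and 85.9% of the gene's TPM, against 60.8 and 50.9 TPM for the protein_coding Ppia-202. Ppia has many near-identical processed copies in the genome that could share reads with it, which was not tested. The deposited posterior SD of the count of Ppia-201 was 0.634% and 0.505% of the count. The annotated coding sequence of Ppia-201 is 120 nucleotides, against 492 for Ppia-202.

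Hspa5-204 and Cct4-203 illustrate how a short model can lead a gene in TPM without holding most of its reads. Hspa5 encodes the chaperone BiP of the endoplasmic reticulum, and Cct4 a subunit of the cytosolic chaperonin. Hspa5-204, 477 bases long, was at 547 and 348 TPM and held 81.9% and 68.5% of the gene's TPM, but 33.1% and 19.2% of its expected counts. Cct4-203, 465 bases long, was at 255 and 86.1 TPM and held 77.8% and 51.6% of TPM, but 29.7% and 11.3% of expected counts. Both were higher in replicate 1, Cct4-203 by 2.96-fold and Hspa5-204 by 1.57-fold. The protein_coding transcripts Hspa5-202 and Cct4-204 were both higher in replicate 2, at 98.8 and 139.6 TPM and at 68.3 and 75.6 TPM.

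The difference between the 2 shares was general among the members. The share of expected counts was below IsoPct in both libraries for 338 members and above it in both for 180. Of the 41 members shorter than 500 bases, 39 had the lower share of counts in both libraries, with a median share of counts of 3.93% beside a median IsoPct of 14.3%. Mrrf-202, a 392-base transcript of the mitochondrial ribosome recycling factor named after its values were seen, held 55.4% and 57.0% of TPM and 8.89% and 9.24% of counts. Lengths ran from 276 bases for Sh2d6-202 to 13848 bases for Stard9-203, with a median of 1311 bases. The 11258 protein_coding transcripts at the same threshold had a median length of 2019 bases and the 1139 retained_intron transcripts 763 bases.

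**Figure D1:**
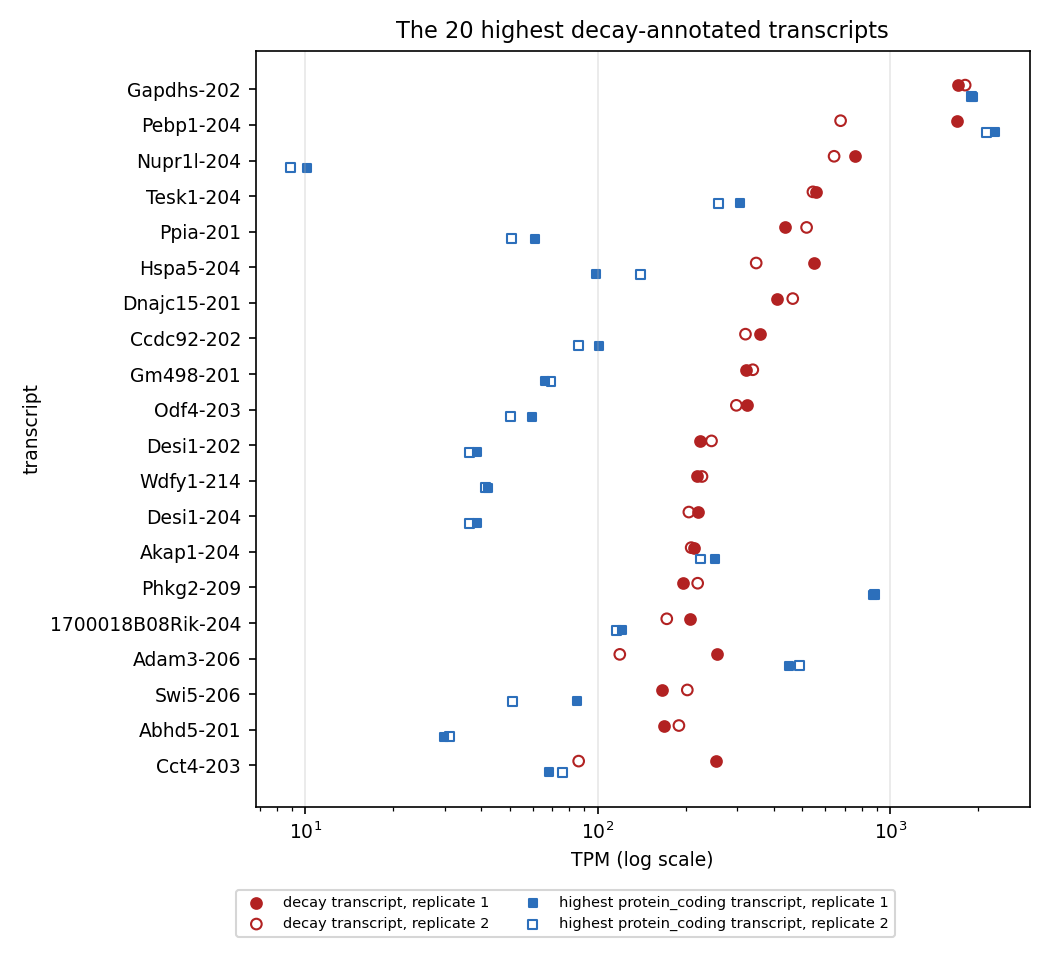
TPM on a log axis of the 20 highest members (red circles) and of the highest protein_coding transcript of the same gene (blue squares), filled for replicate 1 and open for replicate 2. Nupr1l-204, Ppia-201, Odf4-203 and Abhd5-201 lie well to the right of their coding transcripts, Gapdhs-202 and Akap1-204 lie close to theirs, Phkg2-209 lies to the left, and Dnajc15-201 has no coding transcript measured in its gene.

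Several other members of the highest 20 belong to genes of sperm and spermatids. Odf4-203, from the gene of a protein of the outer dense fibres of the sperm tail, was at 324 and 298 TPM with 71.4% and 68.1% of the gene's TPM. The protein_coding Odf4-202 was at 59.8 and 50.5 TPM, below the member in both libraries, and Odf4-203 led its gene. Akap1-204, from the gene of a mitochondrial anchor of protein kinase A, was at 213 and 209 TPM beside 253 and 225 TPM for the protein_coding Akap1-202. Adam3-206, from the gene of a sperm surface protein needed for binding and migration, was at 256 and 119 TPM, a 2.15-fold difference, with Adam3-201 at 451 and 489 TPM. Of the sperm and spermatid list, 78 genes were at 5 TPM or more. Among them 4 (5.13%) had a member, beside 5.02% of all protein-coding genes at that level. A measured transcript of the decay class was present in 8 of the 78, against 2014 of all 9737, and 489 of the 2014 had a member. The 4 listed genes with a member, Gapdhs, Akap1, Adam3 and Catsper2, held 6 members. Odf4 is not in the list. None of the 6 was the leading transcript of its gene, where leading means the highest mean TPM.

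Members that held nearly all of their gene were also found. Nupr1l-204, from a gene related to the stress protein NUPR1, was at 760 and 643 TPM with 97.5% and 95.6% of the gene's TPM, and its annotated coding sequence is identical to that of a protein_coding transcript. Dnajc15-201, from the gene of a co-chaperone of the mitochondrial import motor, was at 411 and 464 TPM and was the only transcript measured in its gene, although its deposited length differs from the M21 model. Nipsnap3a-201, named after its values were seen, was at 94.0 and 102 TPM with 99.1% and 97.7% of the gene, and also shares its coding sequence with a protein_coding transcript. In 13 of the 489 genes the member was the single transcript measured, so its IsoPct of 100 is set by the table and not by a comparison between transcripts.

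Desi1 and Xpo6 each had 4 members. Desi1 encodes a deSUMOylating isopeptidase, and Xpo6 an exportin for actin. The Desi1 members summed to 481 and 487 TPM, or 84.0% and 82.8% of the gene, led by Desi1-202 at 223 and 245 TPM and Desi1-204 at 221 and 205 TPM. By expected counts the order of those 2 was the reverse, since Desi1-202 is 518 bases long and held 11.5% and 12.8% of counts, while Desi1-204 is 1855 bases long and held 59.7% and 56.6%. The Xpo6 members summed to 315 and 324 TPM, or 54.4% and 54.2%, led by Xpo6-219 and Xpo6-207. Across the 489 genes, 437 had 1 member, 42 had 2 and 8 had 3, and the summed IsoPct of the members reached 50 in both libraries in 111 genes, or 22.7%. It stayed under 10 in both libraries in 66 genes.

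A typical member held a minor share of its gene. The median IsoPct was 24.7% in replicate 1 and 24.5% in replicate 2, and the median share of the gene's expected counts was 19.6% and 19.4%. At the same threshold the median IsoPct, averaged over the libraries, was 68.7% for protein_coding transcripts and 19.8% for retained_intron transcripts. The corresponding median shares of counts were 79.7% and 8.08%, so the members lay between those classes on both measures. IsoPct was at least 50 in both libraries for 99 members and under 10 in both for 105. A member was the leading transcript of its gene in 177 cases, 32.0% of members, against 70.0% of protein_coding and 25.4% of retained_intron transcripts. All of these shares follow in part from the threshold, which keeps the upper end of each class. The median IsoPct of the decay transcripts under the threshold was 0.6%.

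**Figure D2:**
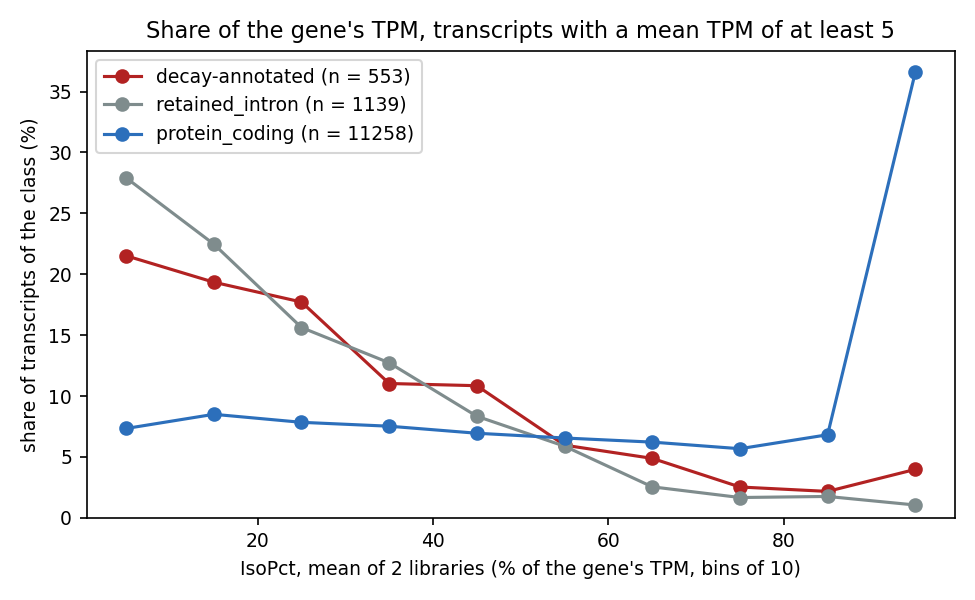
Share of the transcripts of each class (vertical axis, %) by mean IsoPct in bins of 10 (horizontal axis, % of the gene's TPM), for transcripts averaging 5 TPM or more. The decay-annotated line (red, n = 553) follows the retained_intron line (grey, n = 1139) with fewer transcripts in the lowest bin, and lacks the peak of the protein_coding line (blue, n = 11258) in the highest bin.

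Set directly against the highest protein_coding transcript of the same gene, members were more often below than above. A protein_coding transcript was measured for 534 members. The member was above it in both libraries in 180 cases (33.7%), below it in both in 299 (56.0%), and the order differed between the libraries in 55. The remaining 19 had no protein_coding transcript in the deposited gene. Abhd5-201, from the gene of the lipid-droplet coactivator CGI-58, was above its coding transcript at 169 and 189 TPM against 29.9 and 31.1 TPM. Phkg2-209, from the gene of the testis and liver catalytic subunit of phosphorylase kinase, was below it at 195 and 219.6 TPM against 872 and 883 TPM.

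The stop codon of the members was placed on the annotated models. It lay more than 50 bases upstream of the last junction in 550 of 552 members with an annotated stop codon, which is the criterion the class is built on and not a finding. The other 2 were Cyb5a-201 at 45 bases and Mrrf-202 at 29 bases. The distance had a median of 310.5 bases and reached 12430 bases in Stard9-203, whose deposited length differs from the M21 model. In members with the same length in both annotations it reached 6182 bases. A single junction after the stop codon was found in 141 members (25.5%). Among decay transcripts under the threshold the median distance was 342 bases and the share with a single junction 23.4%. The annotated stop codon was TGA in 302 members (54.7%), TAA in 134 (24.3%) and TAG in 116 (21%), beside 58.3%, 22.4% and 19.3% in the transcripts under the threshold.

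**Figure D3:**
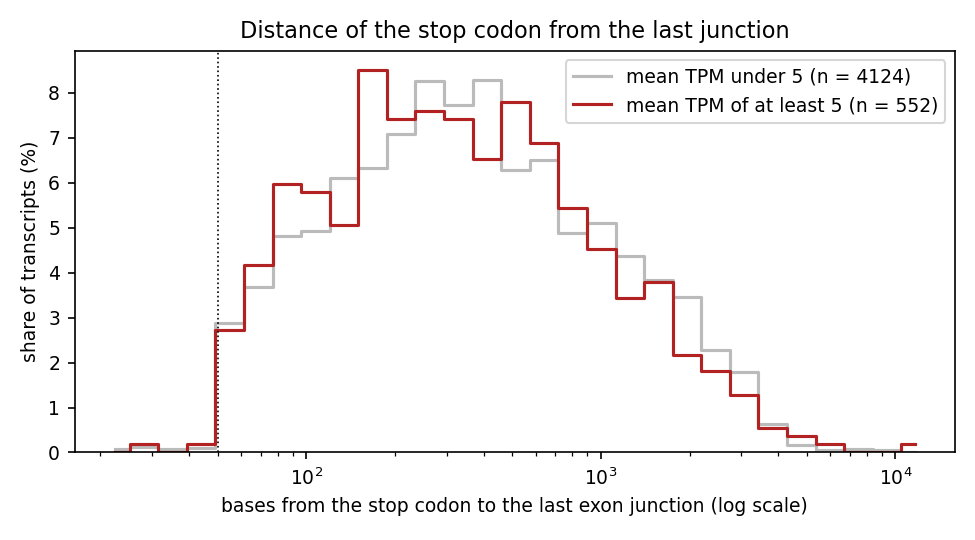
Share of transcripts (vertical axis, %) by the distance in bases from the annotated stop codon to the last exon junction (horizontal log axis), for members (red, n = 552) and for decay transcripts under a mean of 5 TPM with a distance above 0 (grey). Both outlines rise from the dotted line at 50 bases and overlap over most of the range, with medians of 310.5 and 342 bases.

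The place of the stop codon relative to the protein_coding transcripts of the gene differed among the members. In 318 members (57.5%) the stop codon lay in sequence that protein_coding transcripts of the gene also use as exon, and 163 of these spanned a coding-transcript exon upstream, as in Tesk1-204 and Srpk1-201. In 159 (28.8%) it lay outside the exons of protein_coding transcripts, in a separate exon for 105, in an extended exon for 48 and in a retained intron for 6. Pebp1-204 and Akap1-204 are of the separate-exon kind, Hspa5-204 and Cct4-203 of the extended-exon kind, and Ddx5-208 of the retained-intron kind. In 65 (11.8%) the stop codon was that of a protein_coding transcript, and in 40 members the whole annotated coding sequence was the same as in a protein_coding transcript. Among transcripts under the threshold the shares were 59.2% inside, 32.9% outside and 6.39% shared. These are shares of annotated models, and no test was made of the differences between them.

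**Figure D4:**
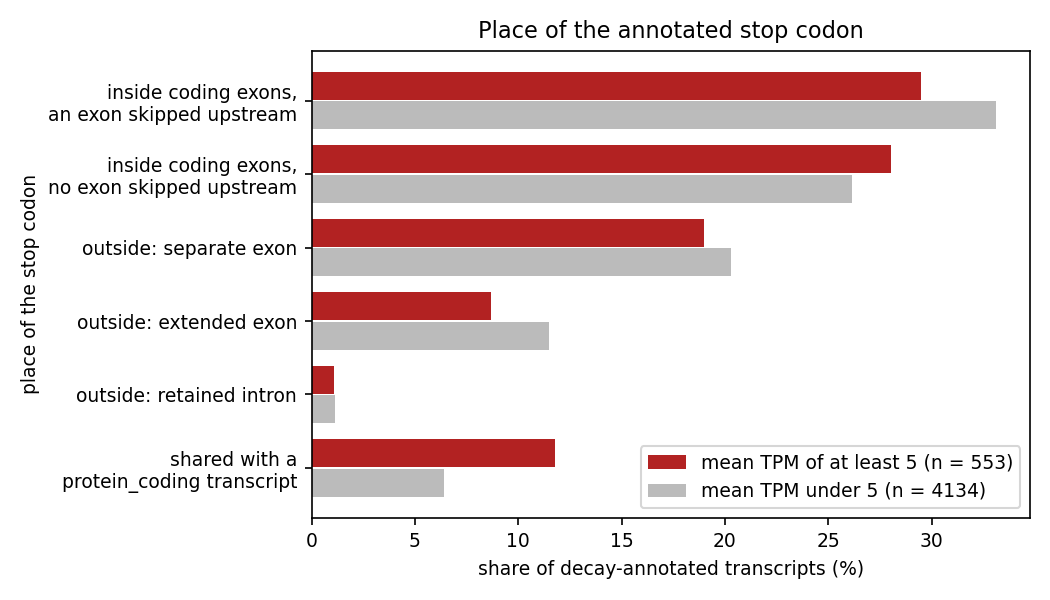
Share of decay-annotated transcripts (horizontal axis from 0, %) by place of the annotated stop codon, for members (red, n = 553) and transcripts under a mean of 5 TPM (grey, n = 4134). The red bar is the longer one for a stop codon shared with a protein_coding transcript, at 11.8% against 6.39%, and the shorter one for an exon skipped upstream, at 29.5% against 33.1%.

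The 3 main kinds had similar levels. The median TPM was 13.22 for members with the stop codon inside shared exons, 14.91 for those outside and 12.74 for those with a shared stop codon. The median IsoPct was 23.8%, 23.9% and 23.9% in the same order, and 30.8%, 30.2% and 33.8% were leading transcripts. The annotated coding sequence had a median of 328 nucleotides, 33.6% of that in the highest protein_coding transcript. It was at least as long as the coding transcript's in 65 members and under 50% of it in 356. An incomplete start of the model was annotated for 159 members (28.8%), as for Gapdhs-202, beside 28.4% of the decay transcripts under the threshold.

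How well a member can be told from other transcripts of its gene differs between members. An intron that no other annotated transcript of the gene has was present in 437 members (79.0%) and absent in 116. Among decay transcripts under the threshold the share with such an intron was 84.2%. The deposited posterior SD of the expected count, which reflects how uncertainly reads are divided among transcripts, had a median of 4.95% of the count over the members. It was 1.60% for protein_coding and 5.39% for retained_intron transcripts at the same threshold. Within the members the median was 4.78% with an intron of their own and 6.02% without. The median expected count was 702 in replicate 1 and 773 in replicate 2, and 548 members had at least 10 counts in both libraries. Transcript support level 1, the annotation's grade for models whose every junction is supported by a messenger RNA, was given to 225 members (40.7%). It was given to 75.3% of protein_coding and 29.1% of retained_intron transcripts at the threshold, and to 33.5% of decay transcripts under it. Level 5, the grade with no supporting transcript, was given to 163 members (29.5%), beside 13.1%, 9.48% and 38.9% in the same order.

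The 2 libraries gave near levels for most members. Of the 553 members, 296 (53.5%) were within 1.2-fold of each other in the 2 libraries, and the median absolute log2 ratio was 0.23, beside 0.18 for protein_coding and 0.26 for retained_intron transcripts. Across members, log2(TPM + 1) in replicate 1 was correlated with that in replicate 2 at 0.888 by Pearson's r and 0.871 by Spearman's rho, a description over transcripts that share libraries and are not independent replicates. Over 2-fold apart were 35 members (6.33%), against a background of 4.16% of all 15282 transcripts at the threshold, 2.97% of protein_coding and 7.37% of retained_intron transcripts. Of these, 21 were higher in replicate 1 (3.8%, background 2.26%) and 14 in replicate 2 (2.53%, background 1.9%). Beside the lower share in protein_coding transcripts stand their higher median counts of 1419 and 1510, whose part was not tested. The threshold is on the mean, for members and background alike, so a transcript could pass it through its higher library alone. Of the 553 members, 491 were at 5 TPM or more in each library. With 1 group of 2 libraries no test of these differences was possible.

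The parent gene's TPM was within 2-fold between the libraries for 33 of these 35 and over 2-fold apart for 2, Gm16867-204 and Clec4g-204. These 35 were picked for a large ratio of the transcript, while a gene sums over its transcripts. A smaller ratio of the gene thus follows in part from the choice. The same share over all transcripts at the threshold was not computed. Gm16867-204 was lower in replicate 2 like its gene, at 10.02 and 3.59 TPM with the gene at 16.26 and 7.02 TPM. Clec4g-204 went the opposite way from its gene, at 8.91 and 1.85 TPM with the gene at 15.65 and 36.47 TPM. Slc2a3-203, from the gene of the neuronal and sperm glucose transporter GLUT3, was at 3.24 TPM in replicate 1 and 37.7 TPM in replicate 2, an 11.6-fold difference, while its gene was at 627 and 814 TPM. Rdh11-202, from the gene of a retinol dehydrogenase, was at 19.3 and 0.06 TPM with the gene at 113 and 114 TPM. The deposited posterior means of Rdh11-202, which average over ways of dividing the reads, were 19.7 and 2.71 TPM. Rnf181-211, from the gene of a ubiquitin ligase, was at 11.3 and 0.64 TPM with the gene at 222 and 220.5 TPM. The low library differed between members, replicate 1 for Slc2a3-203 and replicate 2 for Rdh11-202 and Rnf181-211. Each was under the threshold in its low library and entered the set through the other.

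Lancl2-203 and Vps29-207 were also lower in replicate 1. Lancl2-203, from the gene of a lanthionine synthetase-like protein, was at 3.16 and 18.3 TPM, and Vps29-207, from the gene of a retromer subunit, at 1.79 and 11.9 TPM. Gnpda2-204, from the gene of a glucosamine-6-phosphate deaminase, was lower in replicate 2 at 8.89 and 1.35 TPM. The genes of all 3 were within 2-fold between the libraries, and all 3 transcripts entered the set through their higher library.

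**Figure D5:**
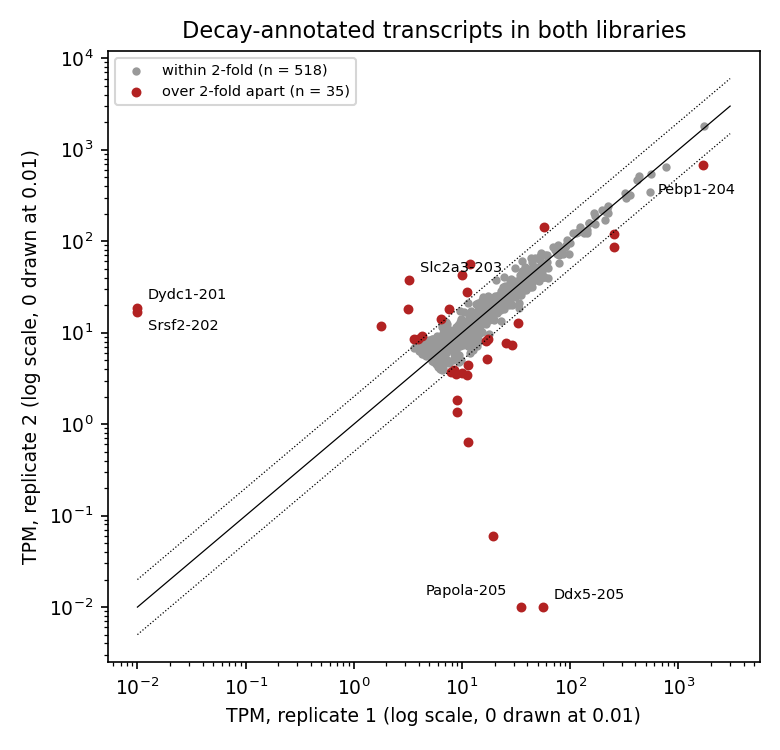
TPM of each member in replicate 1 (horizontal log axis) and replicate 2 (vertical log axis), with 0 drawn at 0.01, the line of equal level and dotted lines at 2-fold. The 518 grey points lie within 2-fold and the 35 red points outside, with Dydc1-201 and Srsf2-202 at 0 in replicate 1 and Papola-205 and Ddx5-205 at 0 in replicate 2.

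For the 4 members at 0 TPM in a library, the deposited posterior mean is given beside the TPM. Ddx5-205, from the gene of an RNA helicase that takes part in splicing, was at 56.5 TPM in replicate 1 and listed at 0 in replicate 2. That mean, which averages over ways of dividing the reads, was 56.7 and 0.72 TPM, a log2 ratio of replicate 2 to replicate 1 of -6.30. Papola-205, from the gene of a poly(A) polymerase, was at 35.0 TPM and listed at 0, with posterior means of 34.9 and 1.31 TPM and a log2 ratio of -4.74 between them. In both members the direction was the same by either estimate.

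Dydc1-201 and Srsf2-202 were at 0 in replicate 1, and both have the coding sequence of a protein_coding transcript and no intron of their own. Dydc1-201, from a gene known in the testis, was listed at 0 and at 18.8 TPM, while the protein_coding Dydc1-203 was at 17.9 and 0 TPM and the gene at 19.6 and 21.3 TPM. The 2 transcripts of Dydc1 thus exchanged places between the libraries with the gene level nearly the same, and the posterior means of Dydc1-201 were 2.27 and 7.74 TPM, a log2 ratio of 1.77. Srsf2-202 was listed at 0 and at 16.9 TPM, but its posterior means were 16.4 and 19.4 TPM, a log2 ratio of 0.24, so the estimates differ on whether the libraries were apart. Of the 35 members over 2-fold apart, 34 were also over 2-fold apart by posterior mean, and Srsf2-202 was the exception.

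Part of the members came from genes that regulate splicing. Of the 20 genes of SR proteins and their relatives at 5 TPM or more, 11 (55%) had a member, beside 5.02% of the 9737 protein-coding genes at that level. Of those 20, 14 had a measured transcript of the decay class at all, against 2014 of the 9737, of which 24.3% had a member. Among hnRNP genes and other splicing regulators 15 of 55 (27.3%) had a member, and 32 had a measured transcript of the class. The lists were chosen with results of these data known, so the counts describe the genes and test nothing.

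Srsf6-201, a transcript of the SR protein SRSF6, was at 28.4 and 31.5 TPM with 48.9% and 49.5% of the gene's TPM, above the protein_coding Srsf6-203 at 11.2 and 11.5 TPM. Srsf3-201, from the gene of SRSF3, was at 19.99 and 25.2 TPM beside 5.69 and 7.90 TPM for the protein_coding Srsf3-202, and its stop codon lies in a separate exon. Srpk1-201, from the gene of a kinase that phosphorylates SR proteins, was the highest of the list at 80.2 and 82.3 TPM, with 60.5% and 60.7% of the gene. All 3 were the leading transcript of their gene. The deposited lengths of Srpk1-201 and Srsf3-201 differ from the M21 models, so the place of their stop codons is that of the later model.

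Other SR members were lower than the protein_coding transcript of their gene. Srsf1-204 was at 3.84 and 7.60 TPM against 26.9 and 27.4 TPM for Srsf1-202, and Srsf4-204 was at 4.86 and 7.77 TPM against 28.3 and 25.8 TPM for Srsf4-202. Tra2b-206, from the gene of a splicing activator, was at 5.89 and 9.24 TPM against 16.7 and 17.3 TPM. Srrm2-204, from the gene of a large nuclear matrix splicing protein, was at 37.3 and 41.2 TPM, above the 8564-base Srrm2-201 at 22.4 and 30.8 TPM, but at 647 bases held 2.35% and 2.37% of the gene's counts. The list held 12 members with a median of 12.8 TPM and a median IsoPct of 17.5%, and 5 of them led their gene. Over all members the medians were 13.42 TPM and 23.9%.

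Among the hnRNP members, Hnrnpu-206 was the highest at 90.3 and 87.3 TPM. The deposited tables place Hnrnpu-206 and Hnrnpu-208 in a separate gene of 3 transcripts at 103 and 103 TPM, so their IsoPct of 87.8% and 84.6% and of 12.2% and 15.4% do not refer to the gene of HNRNPU, whose protein_coding Hnrnpu-201 was at 8.70 and 11.1 TPM. Aldoa-213 was likewise deposited under a gene of its own. Hnrnpll-203 at 15.5 and 19.9 TPM and Khdrbs1-202, from the gene of SAM68, at 10.9 and 11.8 TPM led their genes with 39.6% and 44.1% and with 71.5% and 71.2% of TPM. Ptbp1-207, from the gene of the polypyrimidine tract-binding protein, was at 13.8 and 7.08 TPM against 38.7 and 36.3 TPM for the protein_coding Ptbp1-206. The list held 17 members with a median of 17.7 TPM and a median IsoPct of 20.2%, and 3 led their gene.

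Genes of the basic machinery of the cell held members as well. Of 85 genes of cytosolic ribosomal proteins at 5 TPM or more, 2 (2.35%) had a member, Rpl12-201 at 47.5 and 65.1 TPM and Rpl27a-205 at 11.2 and 9.47 TPM, and both genes have near-identical copies that could share reads. Of 75 proteasome and ubiquitin genes 2 (2.67%) had one, Psma3-201 at 7.18 and 9.94 TPM and Psmd1-204 at 4.51 and 6.98 TPM. Of 34 translation factor genes 3 (8.82%) had one, led by Eif4a1-201 at 76.6 and 90.4 TPM, from the gene of the helicase of cap-dependent initiation, with 52.1% and 49.8% of the gene. Of 90 respiratory chain and ATP synthase genes 7 (7.78%) had one. Genes with a measured transcript of the class numbered 10 for ribosomal proteins, 14 for proteasome and ubiquitin, 5 for translation factors and 17 for the respiratory chain. Over all 9737 protein-coding genes at 5 TPM or more, 2014 had a measured transcript of the class and 489 had a member.

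The respiratory chain members held shares of their genes from 1.29% to 25.1% in single libraries. Cox6b2-207, from the gene of the testis form of a cytochrome oxidase subunit, was at 20.4 and 21.6 TPM with 1.29% and 1.47% of the gene. Ndufb8-205, from the gene of a complex I subunit, was at 43.9 and 59.3 TPM with 8.06% and 11.1%. The largest share was that of Ndufs6-202, from the gene of another complex I subunit, at 22.7% and 25.1%, and Atp5j2-204, from the gene of an ATP synthase subunit, was at 16.9 and 5.21 TPM with 18.8% and 6.14%. The median IsoPct of the 7 was 3.38%, and none led its gene. Among 31 meiosis and piRNA genes at 5 TPM or more, 8 had a measured transcript of the class and 1 (3.23%) had a member. Over all 9737 protein-coding genes the numbers were 2014 and 489. The 1 member was Syce2-201 of the synaptonemal complex, at 36.1 and 61.1 TPM with 40.4% and 51.0% of the gene. It was above the protein_coding Syce2-202 at 27.0 and 21.8 TPM.

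Of the genes of the decay pathway itself, 25 of the 31 listed were at 5 TPM or more. Of these 25, 3 had a measured transcript of the class and 1 (4%) had a member. Over all 9737 protein-coding genes at that level, 2014 had a measured transcript of the class and 489 had a member. The member was Smg6-202, from the gene of the endonuclease of the pathway, at 16.0 and 14.7 TPM with 21.6% and 22.2% of the gene's TPM. Upf1, the central helicase, was at 28.6 and 29.5 TPM at gene level, and Upf2 at 7.95 and 9.51 TPM. The paralogs Upf3a and Upf3b were at 109 and 111 TPM and at 4.54 and 4.53 TPM. Smg5 was at 99.4 and 90.5 TPM and Smg9 at 151 and 130.2 TPM, while Smg1 was at 15.2 and 17.5 TPM. Tdrd6, a protein of the chromatoid body of spermatids, was at 163 and 172 TPM. These levels say nothing of the activity of the pathway.

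At the edge of the rule the members just inside were Htra2-204 at a mean of 5.07 TPM, Abhd5-205 at 5.06 and 4933427D14Rik-204 at 5.05. Just outside were Pold3-206 at 4.99, Hormad2-201 at 4.98 and Tmem116-205 at 4.96. The libraries of Hormad2-201 were at 6.09 and 3.87 TPM, and those of Htra2-204 at 4.51 and 5.63 TPM. The spread between libraries is thus wider than the gap across the threshold, and a rule asking for 5 TPM in each library kept 491 transcripts.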

How the data were processed

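Polyadenylated RNA of 2 testis libraries was measured. Per the deposited readme, the authors quantified each library on mm10 with annotation M4; the sources used here do not name the aligner or the quantifier. Per the file headers, the deposited values are expected counts (estimated and not normalised), TPM, and IsoPct, a transcript's percent of its gene's TPM, each with posterior means. Depth was 50374325 and 52788929 expected counts, and 3 counts are 5.96e-06% and 5.68e-06% of the libraries. No filter on low values was applied.

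Transcript types, positions and sequences came from GENCODE M21, matched by identifier without version: 101510 of 103639 transcripts matched and 2129 did not. Of the 553 members, 501 have the same length in both annotations and 52 differ, and 163 have the same identifier version. Only annotated models of M21 were used for stop codons and junctions. Splice junctions and contigs on mm9 were not used here, as no coordinate was converted.

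Share of counts is a transcript's expected count over that of its deposited gene. The value just named, ratios between libraries and counts of models were computed with Python 3.11.15, pandas 2.3.3 and scipy 1.17.1. The calculation of the ratio was checked on simulated counts. These were drawn independently per transcript, so the check does not cover the division of reads among transcripts. The scaling alternatives used edgeR 4.0.16 and DESeq2 1.42.0, on rounded counts. There is 1 group, so no test was made. Members and lists were chosen with earlier results of these data known. Named were the 20 highest members, the 15 highest that led their gene, up to 4 of each list, the 5 largest ratios in each direction at 50 counts or more, the 3 on each side of the threshold, the shortest and longest, and genes with 4 members; other members are named as examples.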

Additional observations from a re-analysis of the deposited data

How the results depend on the processing

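No paired analysis was possible because the series has 1 group. Of 39 alternatives to the summary values, 34 stayed within 1.5 times of a count or 1 SD of a value, and 5 moved. The 34 include the single-library values of the median IsoPct, the median share of counts and the share of all TPM. These could not move, because the SD they are held against comes from the same 2 libraries. The median IsoPct, 24.6% as reported, was 24.1% from posterior means and 24.9% with at least 10 counts in each library. The median share of gene counts, 19.5% as reported, was 19.3% from posterior means and 19.8% with at least 10 counts. With only the highest protein_coding transcript of each gene as reference, 38 members shared a stop codon instead of 65, since fewer stop codons were open to match. The cause of the other shifts was not tested. Using 1 library alone, the members numbered 553 to 557, the median IsoPct 24.5% to 24.7%, the median share of counts 19.4% to 19.6%, the leading transcripts 179 to 185 and the share of all TPM in the class 2.20% to 2.32%. Members over 2-fold apart numbered 36 with edgeR TMM scaling, 35 with DESeq2 size factors, 36 with posterior means, 29 with a pseudocount of 1 TPM and 35 with at least 50 counts on average. Counts restricted to members of equal model length were chosen after seeing the data. With posterior means, 62 of 63 named members stayed within 1 SD and Hnrnpl-213 moved by 1.52%, but the SD is wide where a library is at or near 0. There Srsf2-202 went from a mean of 8.47 to 17.9 TPM, Dydc1-201 from 9.39 to 5.01 TPM and Rnf181-211 from 5.97 to 4.03 TPM, below the threshold.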

Other observations

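The X chromosome held 4 of the 489 genes with a member, 0.818%, beside 32 of the 2014 genes at 5 TPM or more with a measured transcript of the class, 1.59%, and 265 of all 9737 protein-coding genes at that level, 2.72%. The 4 genes held 5 members, which were Alg13-206 at 10.5 and 17.0 TPM, Alg13-210 at 5.83 and 5.61 TPM, Flna-213 at 12.5 and 6.39 TPM, Rp2-205 at 6.84 and 8.27 TPM and AU015836-204 at 5.30 and 8.50 TPM. Alg13 encodes a subunit of an enzyme of N-glycan assembly, and Flna the actin crosslinker filamin A. No member lay on the Y chromosome. The comparison was made after the positions were seen and was not tested.

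In 10 members the annotated gene had no protein_coding transcript. The highest was Gm20662-201 at 168 and 153 TPM, with 66.2% and 62.6% of its gene's TPM, and Gm45711-201 followed at 46.4 and 50.3 TPM. Their median IsoPct was 94.8%, beside 23.9% over all members, and 100% in the 9 of them with equal model length. With no protein_coding transcript to share the gene's TPM, a high IsoPct follows in part from the table. Where a gene has a single measured transcript it is 100 by the table alone. In 6 members the stop codon lay in a retained intron, among them Ddx5-208 at 38.4 and 52.6 TPM and Gpn3-203 at 12.2 and 12.6 TPM, the latter with 51.4% and 52.8% of its gene.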
